A study of Mus musculus with 6 samples.

Results

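The genes described here are 10 genes of the defense against oxidative stress in Paneth cells, a secretory cell type of the gut epithelium, chosen by name: the transcription factor gene Nfe2l2, which encodes NRF2, the genes Nqo1, Hmox1, Gclc, Gclm, Txnrd1, Srxn1 and Gpx2, which are known NRF2 targets, and the superoxide dismutase genes Sod1 and Sod2. All 10 were found by symbol among the 55414 genes of the count table, and all 10 were among the 9749 genes that passed the filter on low counts. RNA-seq was performed on FACS-purified Paneth cells of WT mice, which were C57BL/6J according to the methods of the study. The mice had standard chow (St_TNF, 3 libraries) or zinc depleted chow (ZincDef_TNF, 3 libraries) for 7 weeks, and TNF was given to all of them 3 hours before sampling. The design text calls the replicates biological and speaks of 4 per group, while the labels hold 3, and the labels do not say how many mice each library came from. The paper, which lists this series among its data, describes its samples as cells of individual mice. A legend in its supplement says that sorted cells were pooled. Both groups had TNF, so the values below compare diets after TNF and do not measure the response to TNF.

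NRF2 is held in the cytoplasm by KEAP1 and sent for degradation. When reactive oxygen or electrophiles modify KEAP1, NRF2 accumulates, enters the nucleus and binds antioxidant response elements together with small MAF proteins, while BACH1 competes for the same sites. Its targets make glutathione, keep thioredoxin and peroxiredoxin reduced, and detoxify quinones and heme. Sod1 encodes the cytosolic superoxide dismutase that carries copper and zinc, and Sod2 the manganese enzyme of mitochondria, whose gene is a classical target of NF-kB after TNF.

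No difference between the diets passed the test for any of the 10 genes. Values of Gpx2, Gclc, Srxn1 and Txnrd1 were higher on average with zinc depletion, with log2 fold changes of 1.14, 1.10, 0.85 and 0.57, but standard diet replicate 3 lay among the zinc depleted libraries for these genes. Sod1 and Sod2 differed by -0.27 and -0.20 on the log2 scale, less than their spread between replicates. Nfe2l2 had a log2 fold change of -0.69. The smallest edgeR adjusted p among the 10 genes was 0.681. Among all tested genes, 0 of 9749 (0%) had an adjusted p under 0.05 with edgeR, and limma-voom also called 0, while DESeq2 called 6, all of them lower and none among the 10. At an unadjusted p under 0.05 edgeR gave 252 genes higher (2.58%) and 393 lower (4.03%), and none of these was among the 10 either.

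Libraries held 6139397 to 12772373 counts. Values are given as TMM-scaled CPM, that is, counts divided by the library total (as CPM) after correction of that total by the TMM factor of edgeR, which ranged from 0.46 to 1.73. Where no read was counted, up to 3 counts remain possible, equal to 0.206 CPM in the library with the lowest limit and 0.632 CPM in that with the highest. This limit covers counting error only. With total counts in place of TMM the median log2 fold change of all tested genes was -0.67 instead of 0.00, so the log2 fold change of each of the 10 genes is given with both. The label of the cells held: 7 Paneth cell markers, among them Lyz1, Defa24 and Mmp7, took 41.6% to 49.5% of the counts in St_TNF and 46.7% to 56.3% in ZincDef_TNF. In such sorted bulk samples fewer cells of a type and less RNA per cell cannot be told apart.

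As sequence context for the NRF2 targets, the window from 250 bases before to 50 bases after the start of the Ensembl canonical transcript was searched in GRCm39 (GENCODE transcripts) on both strands for the core of the antioxidant response element, TGACNNNGC. It was present in 4 of the 10 windows, those of Gclm, Sod1, Srxn1 and Txnrd1, and in 12.5% of the 21757 windows of protein-coding genes. Sod1 is not among the NRF2 targets named above, and the windows of the targets Nqo1, Hmox1, Gclc and Gpx2 held no match. Sequence outside these windows was not searched, so a window without the core does not show that the gene lacks one. The sites are shown 5′ to 3′ on the strand of the gene, with the core in capitals. In each of the 4 the core lies on the opposite strand, so that it reads as its reverse complement.
Txnrd1: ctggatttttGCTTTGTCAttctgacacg
Gclm: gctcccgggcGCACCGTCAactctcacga
Sod1: ggcgcgctgtGCAAAGTCAgtgacaatcc
Srxn1: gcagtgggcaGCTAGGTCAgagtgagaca
The printed stretches are chr10:82694938-82694966, chr3:122039062-122039090, chr16:90017303-90017331 and chr2:151947462-151947490, all on the plus strand. The core starts 65 bases before the transcript start in Txnrd1, 54 in Gclm and 95 in Sod1, and lies 28 bases after it in Srxn1.

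The metal response element core bound by the zinc sensor MTF1, TGCACNC or TGCGCNC, was present in the windows of Gclm, Sod1, Sod2 and Srxn1, against 27.4% of all windows. In Gclm 1 of its 2 matches overlaps the antioxidant response element shown above. The sites of the superoxide dismutase genes are shown because Sod1 carries zinc.
Sod1: gaccttccagGCGCGCAcgcgggcctc
Sod2: actggcaagcTGCACCCggagtccgca
They lie at chr16:90017356-90017382 and chr17:13226334-13226360 on the plus strand. A kappaB-type sequence, searched on both strands, was in none of the 10 windows and in 1.57% of all. At so low a share, no match in 10 windows is the usual outcome. Sequence outside the windows, that of Sod2 included, was not searched. A match is a description of the letters and was not tested as a binding site.

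Nfe2l2 (ENSMUSG00000015839, chromosome 2, 75504739 to 75534985, minus strand, 5 exons) had 18.1, 9.76 and 15.2 CPM in standard diet replicates 1, 2 and 3 and 9.63, 6.32 and 10.6 CPM in zinc depleted replicates 1, 2 and 3. Both groups overlapped only through standard diet replicate 2, which lay below zinc depleted replicate 3. The log2 fold change was -0.69 (SE 0.39, 95% interval -1.56 to 0.17, edgeR adjusted p 0.681), and -1.38 with total counts. Of its regulators, Keap1, which encodes the protein that marks NRF2 for degradation, had 12.8, 12.9 and 13.2 CPM in St_TNF and 14.5, 6.96 and 5.29 CPM in ZincDef_TNF. Keap1 was thus even across the standard diet libraries and lower in 2 of the 3 zinc depleted ones (log2 fold change -0.52, SE 0.43, edgeR adjusted p 0.735), and its log2 fold change was -0.93 with total counts. Bach1, the competitor of NRF2 at its binding sites, had 7.36, 7.59 and 7.61 CPM against 17.6, 6.54 and 13.7 CPM (log2 fold change 0.76, SE 0.42, edgeR adjusted p 0.681), and its log2 fold change was 0.22 with total counts. For Mafg, a small MAF partner, the log2 fold change with TMM was 0.55 (SE 0.44) and that with total counts 0.03.

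**Figure D1:**
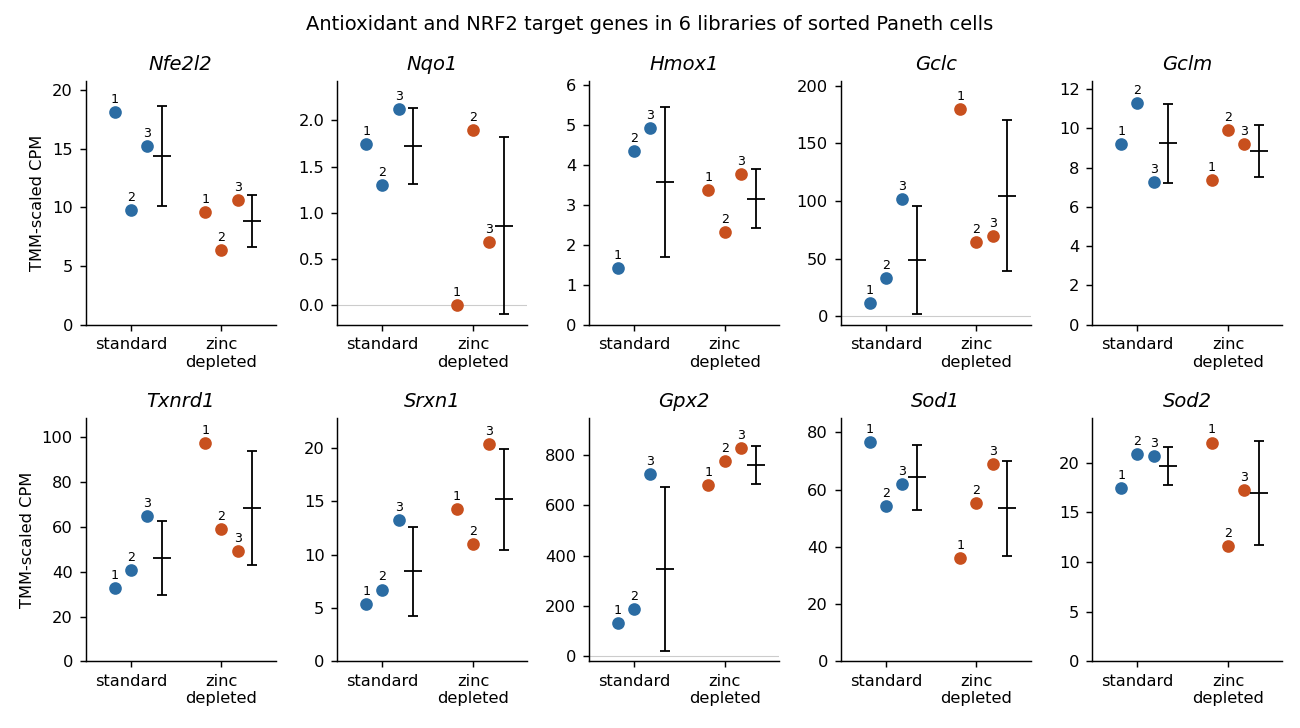
TMM-scaled CPM (vertical axis, each panel with its own scale that includes 0) of the 10 genes in standard diet (blue) and zinc depleted (orange) libraries; each point is 1 library with its replicate number, and the black mark is the mean with its SD (n = 3). The groups overlap in all 10 panels, and for Gpx2, Gclc, Srxn1 and Txnrd1 standard diet replicates 1 and 2 hold the 2 lowest values.

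Glutathione is made in a first, rate-limiting step by glutamate-cysteine ligase, whose catalytic subunit is encoded by Gclc and whose modifier subunit is encoded by Gclm. Gclc (ENSMUSG00000032350, chromosome 9, 77661797 to 77701770, plus strand, 16 exons) had 11.7, 32.9 and 102 CPM in St_TNF and 180, 64.5 and 69.3 CPM in ZincDef_TNF. It was the least even of the 9 genes counted in every library, with a 15.4-fold range over the 6 libraries and an 8.71-fold range within standard diet alone. Its log2 fold change was 1.10 (SE 0.70, 95% interval -0.43 to 2.64, edgeR adjusted p 0.694). It was 2.29 without standard diet replicate 3, 0.46 without zinc depleted replicate 1 and 1.06 with total counts.

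Gclm (ENSMUSG00000028124, chromosome 3, 122039126 to 122065061, plus strand, 7 exons) had 9.18, 11.3 and 7.27 CPM in St_TNF and 7.36, 9.91 and 9.21 CPM in ZincDef_TNF. This was the most even of the 10 genes, with a 1.55-fold range over all libraries, and its log2 fold change was -0.07 (95% interval -0.89 to 0.75), against -0.88 with total counts. Over the 6 libraries the Pearson correlation of log2 CPM between the subunits was -0.61. The ratio of Gclc to Gclm counts per kilobase of coding sequence, which no scaling of libraries can move, was 0.549, 1.25 and 6.04 in St_TNF and 10.5, 2.80 and 3.23 in ZincDef_TNF. On the log2 scale its mean ± SD over 3 libraries was 0.68 ± 1.76 in St_TNF and 2.19 ± 1.05 in ZincDef_TNF, a difference smaller than the spread between the standard diet libraries. The level of the ratio depends on the length used. Per kilobase of the whole transcript it was 2.35, 5.37 and 25.9 in St_TNF and 45.1, 12.0 and 13.9 in ZincDef_TNF. Gsr, which encodes glutathione reductase, was even (20.9 ± 1.78 and 18.6 ± 4.27 CPM, SD, n = 3 each), and the cystine importer gene Slc7a11 stayed at 0.341 to 3.10 CPM.

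The thioredoxin arm includes Txnrd1, the cytosolic thioredoxin reductase, and Srxn1, the sulfiredoxin that restores over-oxidized peroxiredoxins. Txnrd1 (ENSMUSG00000020250, chromosome 10, 82669785 to 82733546, plus strand, 14 exons) had 32.8, 40.9 and 64.9 CPM in St_TNF and 97.3, 59.2 and 49.1 CPM in ZincDef_TNF. Its log2 fold change was 0.57 (SE 0.43, 95% interval -0.36 to 1.51, edgeR adjusted p 0.712). It was 0.24 without zinc depleted replicate 1 and 0.95 without standard diet replicate 3. With total counts it was 0.20, and the order of the libraries was not the same: 56.5, 61.4 and 58.1 CPM of total counts with standard diet against 142, 37.8 and 22.5 with zinc depletion.

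Srxn1 (ENSMUSG00000032802, chromosome 2, 151947436 to 151957687, plus strand, 2 exons) had 5.38, 6.73 and 13.2 CPM in St_TNF and 14.2, 11.0 and 20.3 CPM in ZincDef_TNF. Zinc depleted replicate 3 held its highest value, and standard diet replicate 3 lay between zinc depleted replicates 2 and 1. It had the smallest unadjusted p of the 10 genes, 0.0803 (edgeR, log2 fold change 0.85, SE 0.44, 95% interval -0.12 to 1.82, adjusted p 0.681). Its log2 fold change was 1.37 without standard diet replicate 3 and 0.25 with total counts. The ratio of Txnrd1 to Srxn1 per kilobase of coding sequence was 1.66, 1.66 and 1.34 in St_TNF and 1.86, 1.47 and 0.660 in ZincDef_TNF, so zinc depleted replicate 3 stood lowest. Per kilobase of the whole transcript this ratio was 13.2, 13.2 and 10.6 against 14.8, 11.7 and 5.24.

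Gpx2 encodes the glutathione peroxidase of the gastrointestinal epithelium. With 555 CPM on average over the 6 libraries it was the most abundant of the 10 genes, also per kilobase. Gpx2 (ENSMUSG00000042808, chromosome 12, 76839107 to 76842326, minus strand, 2 exons) had 131, 185 and 724 CPM in St_TNF and 680, 778 and 829 CPM in ZincDef_TNF. The zinc depleted libraries lay within a 1.22-fold range, whereas the standard diet libraries spanned a 5.51-fold range, and standard diet replicate 3 lay above zinc depleted replicate 1. The log2 fold change was 1.14 (SE 0.62, 95% interval -0.23 to 2.50, edgeR adjusted p 0.681). Without standard diet replicate 3 it was 2.32 and still missed the threshold (edgeR adjusted p 0.103), and with total counts and all libraries it was 0.69. The unadjusted p of Gpx2 was 0.0946 in the main edgeR fit. It was lower with limma-voom (0.0313), DESeq2 (0.0343), and edgeR without the filter (0.0353), with the replicate block (0.0104) or without standard diet replicate 3 (0.00113). None of these passed the threshold after adjustment. Gpx2 lies inside Fntb, a gene on the opposite strand with at most 84 counts in any library, and its processed pseudogene Gpx2-ps1 had at most 3 counts.

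Nqo1 and Hmox1 had the fewest counts of the 10 genes. Nqo1 (ENSMUSG00000003849, chromosome 8, 108113835 to 108129934, minus strand, 6 exons), which encodes a quinone reductase, had 22, 12 and 19 counts in St_TNF and 0, 9 and 4 counts in ZincDef_TNF. In CPM this was 1.74, 1.30 and 2.13 against 0, 1.90 and 0.683, where the 0 of zinc depleted replicate 1 allows up to 0.206 CPM. Zinc depleted replicate 2 lay within the standard diet range. The fitted log2 fold change of -1.21 (SE 1.03, 95% interval -3.48 to 1.05, edgeR adjusted p 0.742) rests on few counts. It ran from -0.43 without zinc depleted replicate 1 to -2.62 without zinc depleted replicate 2, and was -2.21 with total counts and -3.05 with limma-voom (unadjusted p 0.0299, adjusted p 0.724). Hmox1 (ENSMUSG00000005413, chromosome 8, 75820241 to 75827217, plus strand, 5 exons), the inducible heme oxygenase, had 1.42, 4.34 and 4.92 CPM in St_TNF and 3.37, 2.32 and 3.75 CPM in ZincDef_TNF. All zinc depleted values of Hmox1 lay within the standard diet range (log2 fold change -0.16, SE 0.56, 95% interval -1.38 to 1.06, edgeR adjusted p 0.939), and its log2 fold change was -0.72 with total counts.

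**Figure D2:**
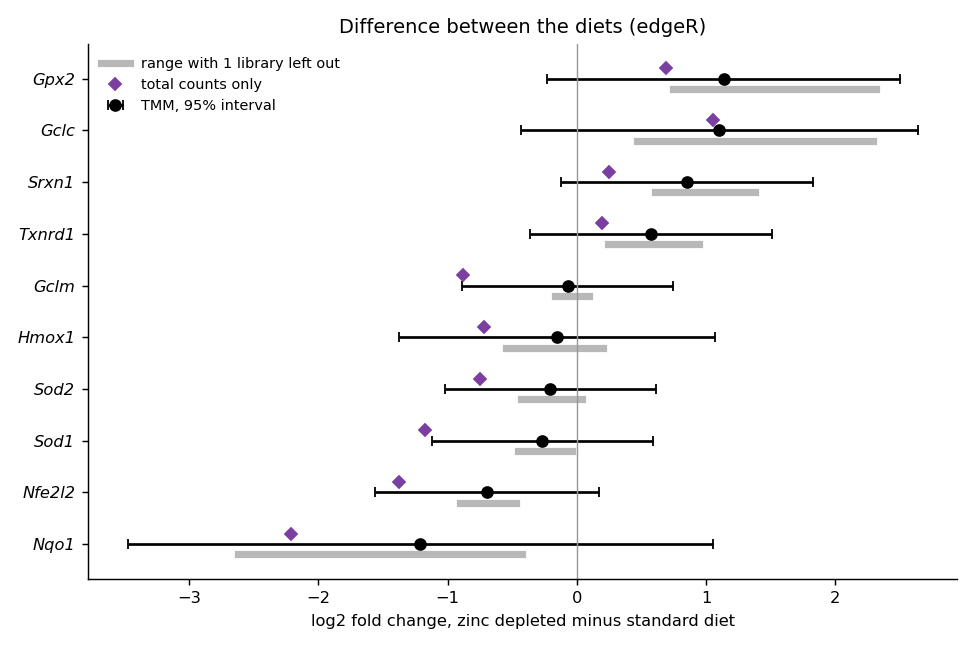
Log2 fold change, zinc depleted minus standard diet (horizontal axis), of the 10 genes by edgeR with TMM (black points, with 95% intervals), the range when each library was left out in turn (grey bars) and the value with total counts only (purple diamonds). All 10 intervals include 0, and the grey bars of Gpx2 and Gclc reach 2.32 and 2.29.

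Sod1 (ENSMUSG00000022982, chromosome 16, 90017408 to 90027657, plus strand, 5 exons), whose enzyme needs zinc for its structure and copper for catalysis, had 76.8, 54.2 and 61.9 CPM in St_TNF and 36.2, 55.2 and 68.9 CPM in ZincDef_TNF. The highest value was that of standard diet replicate 1 and the lowest that of zinc depleted replicate 1, and the other 4 lay mixed between them. The log2 fold change was -0.27 (SE 0.39, 95% interval -1.12 to 0.59, edgeR adjusted p 0.837). Leaving out zinc depleted replicate 1 gave -0.04. With total counts it was -1.17, and the groups no longer overlapped (132, 81.4 and 55.4 against 52.6, 35.3 and 31.6 CPM of total counts), as was the case in the same direction for 10.3% of the tested genes. Nqo1 was the other of the 10 genes without overlap on that scale. None of the 10 genes was free of overlap with TMM, where 3.51% of the tested genes were higher and 6.58% lower without overlap. Scaf4 on the opposite strand, which overlaps 6154 of the 10250 bases of Sod1 (60%), had 22 to 108 counts, and whether counting used strand is not given in the sources used here.

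Ccs, the chaperone that delivers copper to SOD1, had 6.60 ± 0.57 CPM in St_TNF and 7.69 ± 4.60 CPM in ZincDef_TNF (SD, n = 3 each; log2 fold change 0.21, SE 0.46, edgeR adjusted p 0.898), and its sign differed with total counts (-0.72). Atox1, which passes copper to the secretory pathway, had 12.4, 13.2 and 12.2 CPM in St_TNF and 9.43, 29.1 and 36.2 CPM in ZincDef_TNF (log2 fold change 0.97, SE 0.48, edgeR adjusted p 0.681), and -0.10 with total counts. Cat, which encodes catalase, had 29.0, 23.6 and 13.4 CPM in St_TNF and 15.6, 11.6 and 10.8 CPM in ZincDef_TNF (log2 fold change -0.79, SE 0.40, edgeR adjusted p 0.681), and -1.48 with total counts. Only standard diet replicate 3 lay below a zinc depleted library on the TMM scale. Sod3, the extracellular dismutase, was not tested because no library held more than 3 counts of it.

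Markers of crypt stem and dividing cells had an order similar to that of Sod1 on the TMM scale. The summed CPM of 5 stem cell markers, among them Lgr5 and Olfm4, was 2242, 1009 and 1395 in St_TNF and 500, 821 and 1226 in ZincDef_TNF, so that the same libraries were highest and lowest as for Sod1. For 6 proliferation markers, among them Mki67 and Top2a, the sums were 152, 88.6 and 97.9 against 52.2, 65.4 and 100.2 CPM. All markers of both lists were detected in each library, except for 1 stem cell marker in zinc depleted replicate 3. As a share of total counts the picture was another one: stem cell markers took 0.386%, 0.151% and 0.125% in St_TNF and 0.0727%, 0.0524% and 0.0562% in ZincDef_TNF. On that scale zinc depleted replicate 2 was lowest and the groups did not overlap, while Sod1 was lowest in zinc depleted replicate 3. The part of these cells in the Sod1 values was not tested.

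Sod2 (ENSMUSG00000006818, chromosome 17, 13224095 to 13259591, plus strand, 5 exons) had 17.4, 20.8 and 20.7 CPM in St_TNF and 22.0, 11.6 and 17.2 CPM in ZincDef_TNF. The standard diet libraries lay within a 1.20-fold range, the narrowest of the 10 genes in that group. The log2 fold change was -0.20 (SE 0.37, 95% interval -1.02 to 0.61, edgeR adjusted p 0.877). It ran from -0.43 without zinc depleted replicate 1 to 0.04 without zinc depleted replicate 2, and was -0.75 with total counts. The Sod2 to Sod1 ratio per kilobase of coding sequence was 0.157, 0.266 and 0.232 in St_TNF and 0.422, 0.146 and 0.173 in ZincDef_TNF. Its mean log2 value was -2.23 ± 0.39 (SD, n = 3) and -2.18 ± 0.82 (SD, n = 3), so the transcripts of the zinc-copper enzyme exceeded those of the manganese enzyme in all 6 libraries and the balance differed by 0.04 between the diets.

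Other NF-kB genes known to be induced by TNF were set beside Sod2. Nfkbia, which encodes the inhibitor IkBa and is itself induced by NF-kB, had 19.9, 23.5 and 181 CPM in St_TNF and 213, 175 and 202 CPM in ZincDef_TNF. Tnfaip3, which encodes the feedback inhibitor A20, had 1.42, 3.91 and 18.9 CPM against 30.7, 18.6 and 20.0 CPM. In both genes standard diet replicates 1 and 2 stood far below the other 4 libraries, which Sod2 did not show. Over the list of 12 NF-kB genes, standard diet replicates 1 and 2 were the 2 lowest libraries for 10 genes with TMM and for 6 with total counts, against 14.2% and 2.08% of all tested genes. Nfkb2 and Relb, which encode NF-kB subunits, were the exceptions with TMM, as standard diet replicate 2 lay above zinc depleted replicates 2 and 3. Log2 fold changes were 1.40 (SE 0.74) for Nfkbia and 1.53 (SE 0.73) for Tnfaip3, with an edgeR adjusted p of 0.681 for each. Without standard diet replicate 3, the highest library of its group for both genes, they were 3.23 and 3.18. Nfkbia then passed the threshold (edgeR adjusted p 0.0283) while Tnfaip3 did not (edgeR adjusted p 0.0602). For both genes this was the smallest adjusted p of the 13 alternatives. In that fit 28 of 10151 tested genes passed.

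Gclc, Gpx2, Srxn1 and Txnrd1 were also lowest in standard diet replicates 1 and 2 on the TMM scale, 4 of the 10 genes against 14.2% of all tested genes. The pattern thus ran within the standard diet group and crossed the diets. It was shown by 0 of the 18 tested other NRF2 targets and by 3 of the 11 NRF2 regulators and partners. It was also shown by 0 of 9 tested genes of glutathione synthesis and recycling. Among glutathione peroxidases and transferases it was 0 of 10, and among thioredoxins and peroxiredoxins also 0 of 10. Of the superoxide dismutase partners and catalase 1 of 5 showed it. Over the 6 libraries the Pearson correlation of log2 CPM was 0.95 between Gclc and Txnrd1 and 0.92 between Srxn1 and Gpx2. It was 0.86 between Gclc and Gpx2, 0.81 between Gclc and Srxn1, 0.76 between Txnrd1 and Gpx2 and 0.66 between Txnrd1 and Srxn1. These genes were grouped by their shared lowest libraries, so high correlations among them were in part set by that choice. For Nfe2l2 the correlation was -0.43 with Gclc and -0.48 with Gpx2. These points share their libraries and scaling factors, and with total counts standard diet replicate 2 exceeded zinc depleted replicates 2 and 3 in Gclc (49.4 against 41.2 and 31.8 CPM of total counts). Gpx2 alone of the 10 genes kept standard diet replicates 1 and 2 lowest on that scale (226 and 278 against 380 to 989). Beside these, the summed CPM of 7 goblet cell markers was 5231, 5087 and 8986 in St_TNF and 8762, 9981 and 12786 in ZincDef_TNF, again lowest in standard diet replicates 1 and 2. As a share of total counts these markers took 0.901%, 0.764% and 0.805% in St_TNF and 1.27%, 0.637% and 0.587% in ZincDef_TNF, where zinc depleted replicates 2 and 3 were lowest. The 7 Paneth cell markers were likewise lowest in standard diet replicates 1 and 2, with 241712 and 303032 CPM against 320944 or more. They were so as a share of total counts too, with 41.6% and 45.5% against 46.7% or more. The part of either marker set in the values was not tested. Several of the goblet cell markers, such as Agr2 and Spink4, are also made by Paneth cells.

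**Figure D3:**
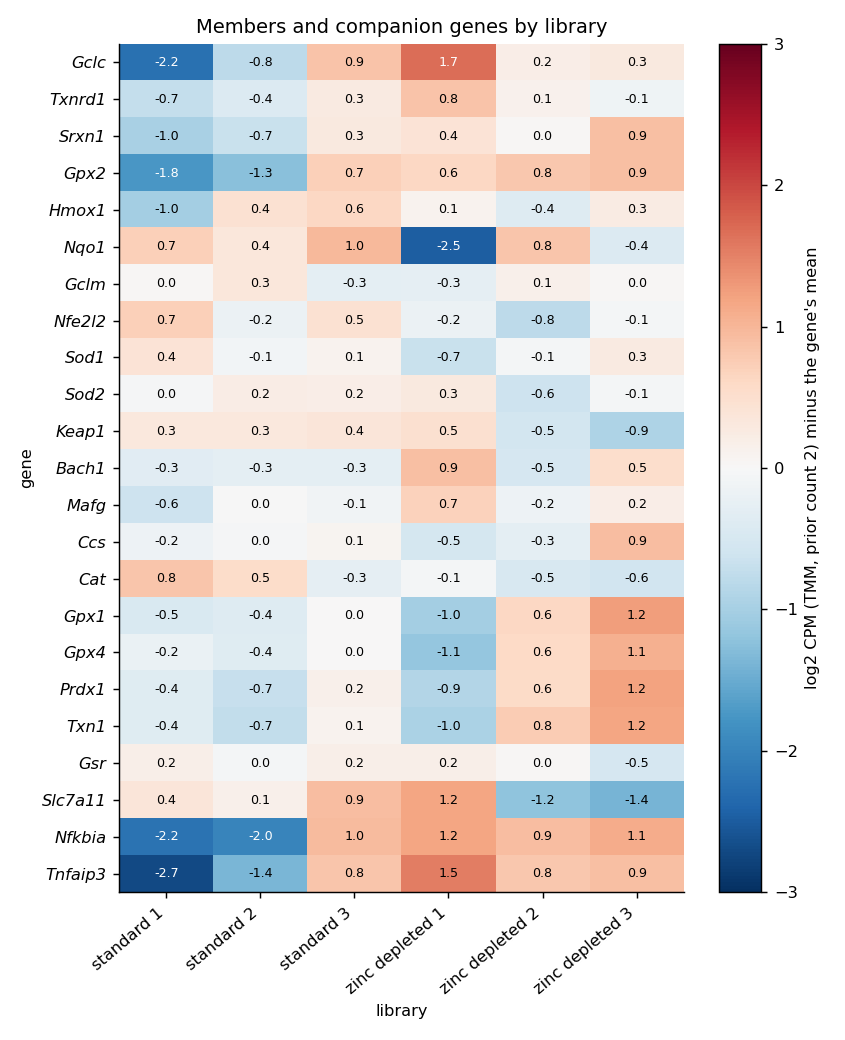
Log2 CPM (TMM, prior count 2) of the 10 genes and 13 companion genes minus each gene's mean over the 6 libraries; columns are libraries, and red is above and blue below the mean. Nfkbia and Tnfaip3 reach -2.21 and -2.71 in standard diet replicate 1, where Gclc is at -2.25 and Sod2 at -0.04.

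Compared per kilobase of coding sequence and averaged over the 6 libraries, Gpx2 came first with 973 CPM per kilobase, followed by Sod1 with 127, Gclc with 40.2, Txnrd1 with 38.3, Srxn1 with 28.9, Sod2 with 27.5, Gclm with 11.0, Nfe2l2 with 6.48, Hmox1 with 3.87 and Nqo1 with 1.57. Gclc and Txnrd1, and likewise Srxn1 and Sod2, are neighbours in this order whose library values overlapped widely. The order below Gpx2 depends on the length used. Per kilobase of the whole canonical transcript, which is 5315 bases long for Sod1 and 7203 for Srxn1 because of long untranslated ends, Gclc came second with 22.3 CPM per kilobase, Sod1 had 11.1 and ranked below Txnrd1 (17.3), and Srxn1 had 1.64.

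Around these genes, 7 related lists with 87 genes were examined, and none of their tested members passed the threshold in either direction, against 0% of all tested genes. The counts above 0 that follow stand beside 4876 of the 9749 tested genes with TMM (50%) and 1273 with total counts (13.1%). Of the 12 NF-kB genes induced by TNF, all were tested and all had log2 fold changes above 0, with a median of 1.06, and the same 12 were above 0 with total counts (median 0.84). Within 10 thioredoxin and peroxiredoxin genes 7 were above 0 (median 0.40), and within 10 tested glutathione peroxidases and transferases also 7 (median 0.31). These last counts turn on the scaling, since with total counts they were 0 of 10 and 1 of 10. Txn1, Prdx1, Gpx1 and Gpx4, which encode thioredoxin, a peroxiredoxin and 2 glutathione peroxidases, were lowest in zinc depleted replicate 1 and highest in zinc depleted replicate 3, and their log2 fold changes were above 0 with TMM and below 0 with total counts. For Txn1 the values were 106, 81.0 and 145 CPM in St_TNF and 69.5, 231 and 308 CPM in ZincDef_TNF (log2 fold change 0.88, SE 0.54, edgeR adjusted p 0.684). For Prdx1 they were 116, 92.2 and 167 against 81.7, 223 and 342 CPM. Gpx1 ranged from 59.0 to 285 CPM and Gpx4 from 10.7 to 50.5 CPM.

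Of the 11 NRF2 regulators and partners 6 were above 0 (median 0.18), and 5 with total counts. Maff, another small MAF gene, had the smallest unadjusted p among them, 0.0100, with 1.34, 1.74 and 6.82 CPM in St_TNF and 9.63, 15.4 and 10.6 CPM in ZincDef_TNF. Its groups did not overlap with TMM (log2 fold change 1.85, SE 0.60, edgeR adjusted p 0.681), though they did with total counts. Sqstm1, which encodes the autophagy receptor p62 and was picked here after its values were seen, had 80.5, 268 and 567 CPM against 641, 529 and 532 CPM, an order like that of Gclc with standard diet replicate 1 lowest. Of the 22 other NRF2 targets 18 were tested and 7 were above 0 (median -0.18), and 0 with total counts. Tkt, the transketolase of the pentose phosphate pathway that supplies NADPH, had 137, 85.6 and 67.0 CPM in St_TNF and 44.9, 40.5 and 46.9 CPM in ZincDef_TNF. Tkt did not overlap with TMM (log2 fold change -1.13, SE 0.40, unadjusted p 0.0160, edgeR adjusted p 0.681), and with total counts the groups overlapped while the log2 fold change was -1.91. With TMM these targets were thus found on both sides of 0, but those without overlap were all lower. They were 3 of the 18, against 6.58% of all tested genes: Tkt and, named after their values were seen, Ephx1 and Pgd. Log2 fold changes of Ephx1 and Pgd were -1.05 (SE 0.38) and -0.40 (SE 0.35), and both overlapped with total counts. In glutathione synthesis and recycling 9 of 10 genes were tested and 4 were above 0 (median -0.04; 0 with total counts), and Glrx, which encodes a glutaredoxin, had the smallest unadjusted p, 0.0215 (log2 fold change -1.28, SE 0.48, edgeR adjusted p 0.681). Mgst2, a membrane glutathione transferase, had a log2 fold change of 1.00 (SE 0.51), which was 0.04 with total counts. In the list of superoxide dismutase partners and catalase 5 of 6 genes were tested and 4 were above 0 (median 0.21), and 0 with total counts.

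**Figure D4:**
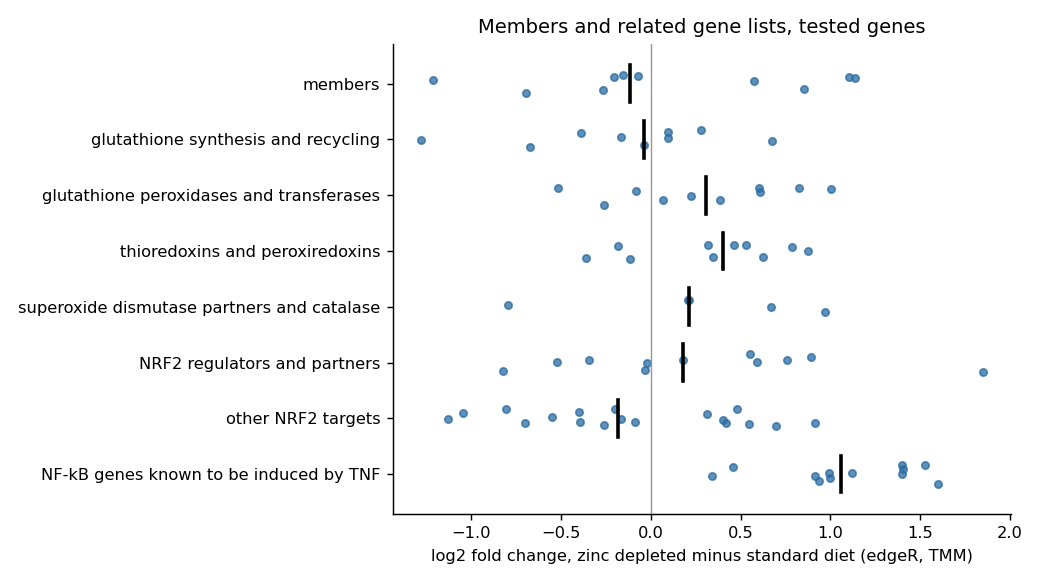
Log2 fold change, zinc depleted minus standard diet (edgeR with TMM, horizontal axis), of the tested genes of each list (points) with the list's median (black bar); the grey line marks 0, where the median of all tested genes lies (0.00). Medians of the lists run from -0.18 for the other NRF2 targets to 1.06 for the NF-kB genes, and the 10 genes described here spread from -1.21 to 1.14.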

How the data were processed

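RNA-seq of sorted Paneth cells was analysed in 6 libraries, 3 per diet. The authors deposited raw read counts per Ensembl gene. The submitters' processing notes name Trimmomatic 0.39, STAR 2.7.10a, DESeq2 and the build mm39. Which program counted, whether it used strand and how it handled reads matching several places is not given in the sources used here. Symbols, positions and lengths came from GENCODE M39 on GRCm39, in which 54749 of the 55414 identifiers were found. Promoter windows were read from the same genome.

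Differential expression was tested with the two-sided quasi-likelihood F test of edgeR 4.0.16 (R 4.3.3) with TMM, filterByExpr by group and no covariate beside diet, and p-values were adjusted over the 9749 tested genes by the Benjamini-Hochberg method (threshold 0.05). The SE was taken as the absolute log2 fold change over the root of the F statistic. Log2 CPM for correlations used a prior count of 2. The procedure was tested on simulated data. It called 76 of 194 genes that were changed 4-fold and 179 of 195 that were changed 8-fold, with 6 and 8 unchanged genes also called. Smaller changes were not simulated, so a gene that was not called is not thereby shown to be unchanged. Within each group, counts of every 2 libraries differed by more than sampling noise (chi-square per degree of freedom 15.3 to 168). The p-values measure the spread between these libraries, which may be partly technical. Libraries held 6139397 to 12772373 counts. The alternatives were DESeq2 1.42.0, limma-voom (limma 3.58.1), RLE size factors, total counts, TMM without Defa genes, no filter, the replicate number as a block, and leaving out each library.

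The genes, the lists and the rule for names were chosen with earlier results of these data known. The rule named the 10 genes, 13 companions (Keap1, Bach1, Mafg, Ccs, Cat, Gpx1, Gpx4, Prdx1, Txn1, Gsr, Slc7a11, Nfkbia and Tnfaip3), the gene with the smallest unadjusted p of a list without calls, and the 3 genes most correlated with each of Sod1, Sod2 and Nqo1. Markers of 8 kinds were summed.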

Additional observations from a re-analysis of the deposited data

How the results depend on the processing

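For the 10 genes, 123 of 130 values under the 13 alternatives kept the direction and missed the threshold, 7 turned the direction, and none passed the threshold. Hmox1 was 0.11 with limma-voom and ran from -0.55 to 0.20 with 1 library left out, Gclm ran from -0.17 to 0.10 and Sod2 from -0.43 to 0.04 (0.042 without zinc depleted replicate 2). The cause was not tested. Beside Gpx2 and Nqo1, an unadjusted p under 0.05 was given by edgeR alternatives for Gclc, Srxn1 and Sod1. For Gclc it was 0.0158 without the filter and 0.00575 without standard diet replicate 3. For Srxn1 it was 0.0421 with the replicate block and 0.0132 without standard diet replicate 3, and for Sod1 0.0408 with total counts. The number of genes called was 76 without the filter on low counts, 6 with DESeq2, and 0 to 28 with 1 library left out, 28 being without standard diet replicate 3. Replicate numbers were not shown to pair the libraries: the correlation of deviations from the group means was 0.15, -0.06 and 0.25 for numbers 1, 2 and 3, and not every library correlated best with its own number. With the replicate block 0 genes were called, with 962 against 645 genes at an unadjusted p under 0.05, and the log2 fold changes of Gpx2 and Gclc were 1.57 and 1.36. Nqo1 and Hmox1 had at most 22 and 49 counts in a library, which limits what their values can show.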

Other observations

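The genes whose log2 CPM followed Sod1, Sod2 and Nqo1 most closely over the 6 libraries, among 9748 tested genes each, were named as a description, since the highest of so many correlations over 6 points is always high. For Sod1 they were Npm1 (r = 0.992), which encodes a nucleolar protein of ribosome assembly, Pole2 (r = 0.990), which encodes a subunit of a replicative DNA polymerase, and Dnajc9 (r = 0.989), which encodes a histone chaperone. Npm1 had 136, 71.7 and 85.9 CPM in St_TNF and 38.7, 68.1 and 107 CPM in ZincDef_TNF, so its lowest value was in zinc depleted replicate 1, as for Sod1. For Sod2 they were Arl10 (r = 0.994), Ppil4 (r = 0.986) and Supt7l (r = 0.976), with at most 4.68 CPM in any library. For Nqo1, which had few counts, they were Ip6k2 (r = 0.981), 9130230L23Rik (r = 0.978) and Harbi1 (r = 0.968).

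Ferritin genes, which are NRF2 targets that store iron, are named after their values were seen. Fth1, the heavy chain, had 536, 642 and 624 CPM in St_TNF and 525, 1037 and 1360 CPM in ZincDef_TNF (log2 fold change 0.70, SE 0.48, edgeR adjusted p 0.707). Ftl1, the light chain, had 97.7, 144 and 170 CPM against 132, 183 and 229 CPM (log2 fold change 0.40, SE 0.41). In both genes zinc depleted replicate 1 lay within or below the standard diet range while zinc depleted replicates 2 and 3 lay above it, and with total counts both log2 fold changes were below 0.

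In each library the summed markers of tuft, enterocyte, enteroendocrine and immune cells lay below those of goblet and stem cells given above. Summed markers of tuft cells reached 496 CPM in standard diet replicate 2 and were 27.5 to 132 CPM in the other libraries. Enterocyte markers summed to 28.3 to 152 CPM, enteroendocrine markers to 18.9 to 86.5 CPM and immune markers to 63.3 to 146 CPM, with Cd3e and Itgax at 0 counts in all libraries.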
